A study of Mus musculus with 10 samples.

Results

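The mitochondrial carrier family Slc25 was followed through an ATAC-seq data set of mouse Th17 cells, as the chromatin sites that lie nearest to its genes. ATAC-seq counts the insertions of a transposase into DNA and so reads how open each stretch of chromatin is. A site was taken as a member where the nearest protein-coding gene body on GRCm38, within 50 kb, carried an Slc25a symbol other than Slc25a1. This gave 58 of the 39657 deposited sites, at 32 of the 46 family genes under the rule. The farthest member lay 19.1 kb from its gene body, and 3 further sites had a family gene as their nearest but lay beyond 50 kb and were not counted. The 14 genes with no site in the table included Slc25a2, Slc25a5, Slc25a11, Slc25a14, Slc25a18, Slc25a21, Slc25a25, Slc25a34, Slc25a41, Slc25a42, Slc25a44, Slc25a47 and Slc25a51. Each deposited site carries a DBS number, so the table may be a selected set, and a gene with no site in it is not thereby shown to be closed.

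The naive CD4+ T cells came from mice with floxed pyruvate dehydrogenase alleles, written PDHfl/fl in the growth protocol and PHD-fl/fl in the sample titles, and all groups share these alleles. The KO group also carried CD4 Cre, which is active in T cells from their development in the thymus, and the WT group carried no Cre. All cells were cultured for 3 days with plate-bound anti-CD3, anti-CD28, IL-6 at 30 ng/mL, TGFβ at 2 ng/mL and anti-IFNγ, either untreated or with 10 mM sodium acetate throughout. The libraries numbered 3 for untreated KO, 3 for untreated WT, 2 for WT with acetate and 2 for KO with acetate. The labels do not say that replicates came from separate animals, so the p-values rest on the variation among these libraries alone. They also name PDH without a subunit, and accessibility does not show whether a floxed exon was removed.

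Pyruvate dehydrogenase turns pyruvate into acetyl-CoA inside the mitochondrion. The inner mitochondrial membrane is closed to most metabolites, and Slc25 proteins carry nucleotides, phosphate, amino acids, carboxylates, cofactors and iron ions across it, while pyruvate itself enters through the separate pyruvate carrier Mpc1/Mpc2. Carriers of this family therefore connect the citric acid cycle, oxidative phosphorylation, fatty acid oxidation and haem synthesis with the cytosol, and activated T cells draw on all of these.

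Each library held between 3500172 and 13356560 reads inside sites, as recovered from the signal, and its median site held between 57 and 233. Signal summed over all sites was 5668610 to 7060980 in the untreated KO libraries and 8508080 to 11280700 in the other 7, on the scale the authors deposited, and the median log2 difference between untreated KO and untreated WT over all 39657 sites was -0.84. The column names carried the prefix ATAC1 for the 3 untreated KO libraries and for untreated WT 1 and 2, and ATAC2 for untreated WT 4 and every acetate library. All 7 genes of a Th17 list, among them Il17a, Il17f, Il23r, Ccr6, Cd4 and Cd3e, had sites. Their 41 sites held 0.132% to 0.152% of the signal in untreated KO, 0.0834% to 0.105% in untreated WT, 0.0917% to 0.101% in WT with acetate and 0.142% to 0.162% in KO with acetate. Without the sites of Cd4, the gene after which the Cre driver is named, the ranges were 0.0770% to 0.0855%, 0.0733% to 0.0954%, 0.0832% to 0.0919% and 0.0781% to 0.0889%, which overlap. Cd8a, Cd8b1, Ms4a1, Cd79a, Cd79b, Csf1r and Lyz2 had no site in the table, while Pax5 and Ebf1 of the B cell list, with 15 sites, held 0.0139% to 0.0194% and Spi1 and Itgam of the myeloid list, with 5 sites, held 0.0146% to 0.0171%, with overlapping groups. Within the B cell list the genes went opposite ways in untreated cells, since the highest group mean over the sites of Pax5 was 97.1 in KO and 29.6 in WT, and over those of Ebf1 295.5 and 521. The part of any other cell type in the Slc25 values was not tested.

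More of the member sites than of all sites lay at gene ends. Within 1 kb of an end of the gene body lay 31 of 58 (53.4%, against 24.4% of all sites), a further 17 lay inside a gene body (29.3% against 42.7%), and 10 lay outside (17.2% against 24.8%). The remaining 8.10% of all sites had no gene within 50 kb and could not be members. RefSeq start sites on GRCm38.p6 were at hand for 26 of the 32 genes. All 26 gene-end sites of those genes lay within 1 kb of a start site, and 15 covered it. All 58 sites are 201 bp wide, so their signals can be compared per length. In untreated WT the gene-end sites had a median signal of 544, from 41.9 to 1189.5, the gene-body sites a median of 127 and the outside sites a median of 151. The gene-end sites sat at a median percentile of 86.1 among all sites by mean signal. The highest was the start-site peak of Slc25a45 at percentile 99.5, followed by the site 17.5 kb downstream of the Slc25a17 body at 98.6 and the start site of Slc25a29, a basic amino acid carrier, at 98.5. The lowest was a side peak of Slc25a38 at percentile 1.79.

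Upstream sequence is shown for the first 6 carriers of a fixed list whose site overlaps a RefSeq promoter window, which runs from 250 bases before the start site to 50 after it, and for Slc25a48, the gene-end member that went the other way in untreated KO. Each is the 250 bases before the start site from RefSeq on GRCm38.p6, 5′ to 3′ on the gene's strand. The windows are chr10:91123968-91124217 (minus) for Slc25a3, chr8:46211063-46211312 (minus) for Slc25a4, chr11:120491587-120491836 (plus) for Slc25a10, chr2:71367756-71368005 (minus) for Slc25a12, chr6:6217174-6217423 (minus) for Slc25a13, chr9:108661886-108662135 (plus) for Slc25a20 and chr13:56438105-56438354 (plus) for Slc25a48. Capitals mark every match, on either strand, to CCGGAAG (ETS), CCAAT (NF-Y), GGGCGG (SP/KLF), TGCGCA (NRF1 core), CACGTG (E-box), TGACGTCA (CRE) or TGANTCA (AP-1).
Slc25a3: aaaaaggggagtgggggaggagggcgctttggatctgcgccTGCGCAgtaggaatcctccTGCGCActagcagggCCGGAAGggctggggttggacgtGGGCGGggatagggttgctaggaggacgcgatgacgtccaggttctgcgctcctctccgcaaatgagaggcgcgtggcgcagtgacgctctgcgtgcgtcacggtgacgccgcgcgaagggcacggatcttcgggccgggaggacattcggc
Slc25a4: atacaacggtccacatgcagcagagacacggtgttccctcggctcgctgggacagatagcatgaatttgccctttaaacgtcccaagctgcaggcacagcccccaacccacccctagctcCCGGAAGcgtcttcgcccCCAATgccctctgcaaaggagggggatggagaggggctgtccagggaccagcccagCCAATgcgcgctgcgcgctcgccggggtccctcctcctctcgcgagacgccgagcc
Slc25a10: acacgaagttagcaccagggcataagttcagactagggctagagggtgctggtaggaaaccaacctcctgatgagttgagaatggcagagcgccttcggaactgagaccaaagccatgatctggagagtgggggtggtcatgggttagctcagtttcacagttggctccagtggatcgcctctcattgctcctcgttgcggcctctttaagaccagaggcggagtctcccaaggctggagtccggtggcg
Slc25a12: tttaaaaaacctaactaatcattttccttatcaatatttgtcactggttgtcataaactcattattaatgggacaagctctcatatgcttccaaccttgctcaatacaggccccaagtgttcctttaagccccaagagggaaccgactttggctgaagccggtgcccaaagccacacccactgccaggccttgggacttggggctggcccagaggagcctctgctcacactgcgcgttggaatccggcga
Slc25a13: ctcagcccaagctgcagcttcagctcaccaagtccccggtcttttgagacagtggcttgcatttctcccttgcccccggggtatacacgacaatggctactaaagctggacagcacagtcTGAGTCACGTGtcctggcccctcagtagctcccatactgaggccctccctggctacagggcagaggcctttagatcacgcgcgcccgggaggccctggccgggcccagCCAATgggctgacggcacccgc
Slc25a20: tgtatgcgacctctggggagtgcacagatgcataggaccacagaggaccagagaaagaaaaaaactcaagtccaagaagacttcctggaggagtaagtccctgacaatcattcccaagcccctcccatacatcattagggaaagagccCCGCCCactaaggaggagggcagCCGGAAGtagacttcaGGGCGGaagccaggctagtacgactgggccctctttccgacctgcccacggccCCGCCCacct
Slc25a48: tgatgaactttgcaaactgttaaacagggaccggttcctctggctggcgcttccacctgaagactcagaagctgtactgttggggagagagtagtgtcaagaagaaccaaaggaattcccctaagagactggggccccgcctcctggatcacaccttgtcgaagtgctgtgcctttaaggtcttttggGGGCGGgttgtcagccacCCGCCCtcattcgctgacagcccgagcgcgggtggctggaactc
In the Slc25a13 window an AP-1 match and an E-box match overlap and read as one run of capitals. The Slc25a12 site overlaps only the part of its window after the start site, and ends 30 bases short of the printed ones. A match is a string of letters and not a bound site.

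Of all member sites, 20 overlapped a RefSeq window of 300 bases, each of another gene, and motifs were searched in the 250 bases before the start site. GGGCGG was found in 14 of these 20 upstream windows (70%) and in 32.7% of all 32851 windows of the same 250 bases. CCGGAAG was in 4 (20%, against 6.91%), CCAAT in 8 (40%, against 33.8%), TGCGCA in 2 (10%, against 6.43%), CACGTG in 3 (15%, against 6.02%), TGACGTCA in 1 (5%, against 1.55%) and TGANTCA in 1 (5%, against 6.75%). The member windows had a median GC content of 62.8%, against 52.4% for all windows, and the motif shares were not adjusted for it. They were also kept only where a deposited site overlaps them, while the set of all windows was not. The shares thus set windows with an accessible site against windows with or without one, and a trait of the family was not tested. The windows of Slc25a10, Slc25a12, Slc25a16 and Slc25a43 held none of the motifs, while that of Slc25a36, a pyrimidine nucleotide carrier, held 5 of the 7.

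Untreated KO was compared with untreated WT first, the comparison of the genotypes without added acetate. Only the KO group carried Cre, so in every comparison of KO with WT loss of PDH and the presence of Cre cannot be told apart. Signal was lower at 51 of the 58 sites, higher at 6 and not called at 1. Over all sites 89.6% were lower and 9.07% higher on the same scale, so the Slc25 split was close to that of the table. Nearly every deposited site was thus called in this comparison. If the sites were selected on it, the calls, p-values and separation of groups here follow in part from that selection, which was not tested. The median log2 difference of the Slc25 sites was -0.86, a fold of 0.553, against -0.84 for all sites. The 51 lower sites had folds from 0.318 to 0.730 on the log2(value + 1) scale. Groups did not overlap at 55 of 58 sites (94.8%, against 89.5% of all sites), and the overlapping ones were the Slc25a30 gene-body site below, the start site of Slc25a36 and the gene-end site of Slc25a46. In these bulk libraries a loss of open chromatin per cell and a smaller share of cells with the site open cannot be told apart. For the fall shared by most sites, a shift in the scale of the deposited values cannot be told apart from them either.

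When the libraries were brought to one scale by cyclic loess, which removes the shift shared by most sites, 6 Slc25 sites were higher and 1 lower, against 9.35% and 2.41% of all sites. The Slc25 median was then -0.03, and the median over all sites -0.00051. The 58 sites together held 0.187% ± 0.00331 (SD, n = 3) of each untreated KO library's signal and 0.187% ± 0.0121 (n = 3) of each untreated WT library's, a share that does not depend on the scale. With acetate the share was 0.184% ± 0.0141 (n = 2) in WT and 0.189% ± 0.0105 (n = 2) in KO. The difference of these means was smaller than the spread between libraries.

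**Figure D1:**
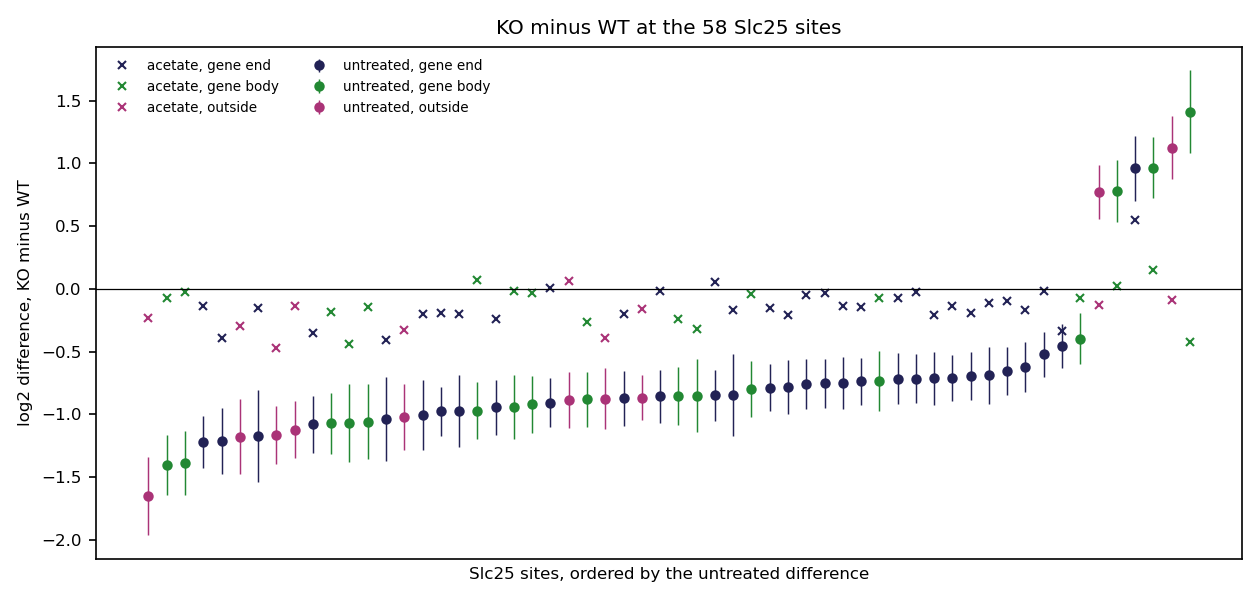
Log2 difference KO minus WT at each of the 58 Slc25 sites, ordered by the untreated difference. Filled points with bars are the untreated difference with its standard error, crosses the difference with acetate, and colours give the place of the site. The untreated points run from -1.65 to 1.41 with 6 above 0, while the crosses lie between -0.47 and 0.55.

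The carriers of adenine nucleotides and phosphate, which supply oxidative phosphorylation with its substrates, were lower in untreated KO, as were 89.6% of all sites. Of the 7 sites of adenine nucleotide carriers 7 were lower, with differences from -1.12 to -0.69 and a median of -0.92 beside -0.84 for all sites, and 0 were called after loess by limma, with 0 at an unadjusted p under 0.05. The start-site peak of Slc25a4, the ADP/ATP exchanger of the inner membrane, at chr8:46210954-46211154 read 343, 390.4 and 449 in untreated KO and 692, 507 and 728 in untreated WT, and with acetate 757 and 606 in WT and 569.5 and 617 in KO. Every untreated KO value lay below every value of the other groups, at a log2 difference from untreated WT of -0.69 (SE 0.19, limma adjusted p = 0.000744). That is a smaller fall than the all-site median, and under median-of-ratios, total signal and loess scaling the sign turned, to 0.11, 0.02 and 0.02. At the start site of Slc25a3, the phosphate carrier, at chr10:91123937-91124137 the signals were 302, 375 and 378 in untreated KO and 724, 507 and 892 in untreated WT, and with acetate 908 and 582 in WT and 639 and 637 in KO. Untreated KO was again the lowest group with no overlap, at -0.98 (SE 0.20, limma adjusted p = 1.13e-05), and the loess-scaled difference was -0.26 (adjusted p = 0.302). The sites of Slc25a24, a calcium-regulated ATP-Mg/phosphate carrier, numbered 4 and were all lower, from -1.08 to -0.85.

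Carriers of carboxylates and of the amino acids of the malate-aspartate shuttle held the 1 member called lower after loess scaling. Slc25a12 and Slc25a13 are the aspartate/glutamate exchangers of that shuttle, which brings cytosolic reducing equivalents to the matrix. At the Slc25a12 gene end, chr2:71367526-71367726, just downstream of the start site, signal was 205, 221 and 291 in untreated KO and 642, 412 and 636 in untreated WT, and with acetate 702 and 463 in WT and 468 and 572 in KO. No untreated KO library reached an untreated WT library, and the difference was -1.22 (SE 0.21, limma adjusted p = 3.78e-07). It was called lower after loess scaling, at -0.46 (adjusted p = 0.0436), but it was not called under median-of-ratios scaling, at -0.42. The Slc25a13 start site at chr6:6217038-6217238 read 185, 198 and 219.9 in untreated KO and 365, 270.2 and 390.3 in untreated WT, and with acetate 437 and 299.8 in WT and 322 and 336 in KO, with untreated KO below all others and a difference of -0.75 (SE 0.21, limma adjusted p = 0.000805). Its sign turned under median-of-ratios and loess scaling, to 0.05 and 0.06. For Slc25a10, the dicarboxylate carrier, the start site at chr11:120491774-120491974 held 195, 202 and 280.2 in untreated KO and 469.5, 321 and 437 in untreated WT, and with acetate 495 and 351 in WT and 419 and 404 in KO. It was lower in untreated KO at -0.86 (SE 0.21, limma adjusted p = 0.000172), near the all-site median. Both sites of Slc25a22, a glutamate carrier, were lower, at -0.73 and -0.72.

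Carriers of carnitine and of other amino acids had 5 sites, of which 5 were lower, from -1.17 to -0.52, beside 89.6% of all sites. Their median was -0.87, against -0.84 for all sites, and 0 were called after loess by limma, with 0 at an unadjusted p under 0.05. Slc25a20 takes acylcarnitines in for fatty acid oxidation. Its start site at chr9:108661989-108662189 read 127, 127 and 135 in untreated KO and 257, 168 and 312 in untreated WT, and with acetate 305 and 237 in WT and 243 and 225 in KO, and the untreated KO values were close to each other and below all the rest. The difference was -0.87 (SE 0.22, limma adjusted p = 0.000213), and the loess-scaled value -0.03 (adjusted p = 0.959). Slc25a38, the glycine carrier used in haem synthesis, had its stronger peak at chr9:120110712-120110912 with 318, 341 and 390.2 in untreated KO and 651, 502 and 855 in untreated WT, and with acetate 705 and 565 in WT and 695 and 576 in KO. Untreated KO was lowest without overlap, at -0.91 (SE 0.20, limma adjusted p = 3.37e-05). Slc25a15, the ornithine carrier of the urea cycle, and Slc25a29 were lower at -0.78 and -0.52.

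Carriers of coenzymes, nucleotides and glutathione formed the largest group, with 16 sites, of which 15 were lower and 1 higher, beside 89.6% and 9.07% of all sites. Their median was -0.86, against -0.84 for all sites, and after loess 0 were lower and 1 higher. Slc25a26 brings S-adenosylmethionine into the mitochondrion. Its gene-end site at chr6:94500224-94500424 read 135, 147 and 168 in untreated KO and 309.7, 216 and 357 in untreated WT, and with acetate 511 and 264 in WT and 271 and 356 in KO, with untreated KO lowest and a difference of -0.94 (SE 0.22, limma adjusted p = 9e-05). The site at the end of Slc25a32, a folate and flavin carrier, at chr15:39112695-39112895 is shared with the neighbouring Dcaf13, whose body it also touches, and held 307, 322 and 428 in untreated KO and 666, 475 and 652 in untreated WT, and with acetate 646 and 423 in WT and 465 and 549 in KO. It was lower in untreated KO at -0.76 (SE 0.20, limma adjusted p = 0.000414), with the sign turned under median-of-ratios scaling, to 0.04. Slc25a39, which carries glutathione, read 412, 455 and 511 in untreated KO and 928, 617 and 777 in untreated WT, and with acetate 760.0 and 589.7 in WT and 604 and 605 in KO at its strongest site, chr11:102408467-102408667, and differed by -0.74 (SE 0.19, limma adjusted p = 0.000322), turning to 0.07 under median-of-ratios scaling. The start site of Slc25a33, a pyrimidine nucleotide carrier, at chr4:149774210-149774410 had 258, 321 and 354 in untreated KO and 556, 416 and 743 in untreated WT, and with acetate 529 and 469 in WT and 530.3 and 505 in KO. Untreated KO was lowest there too, without overlap, at -0.85 (SE 0.20, limma adjusted p = 0.000128).

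The site in the body of Slc25a33 at chr4:149759568-149759768 had a more negative difference than its start site, with 38.4, 57 and 50.8 in untreated KO and 139, 132 and 117 in untreated WT, and with acetate 135 and 147 in WT and 136 and 133 in KO. The highest untreated KO library, 57.0, was below the lowest of the other 7, 117. The difference was -1.40 (SE 0.24, limma adjusted p = 4.73e-07) on the deposited scale and -0.50 (adjusted p = 0.106) after loess. A site 19.1 kb downstream of the body of Slc25a17, a peroxisomal cofactor carrier, at chr15:81299621-81299821 had the lowest difference of all members at -1.65 (SE 0.31, limma adjusted p = 3.96e-05). Its values were 32.9, 42 and 55.6 in untreated KO and 196, 209 and 60.8 in untreated WT, and with acetate 132 and 126 in WT and 136 and 89 in KO, and untreated WT 4 stood far below the other untreated WT libraries. Among the members without a settled substrate, Slc25a43 had a gene-body site at chrX:36744837-36745037 with 25.8, 35.5 and 52 in untreated KO and 105, 88.4 and 97.3 in untreated WT, and with acetate 123 and 129.9 in WT and 112 and 139 in KO. Untreated KO lay below all others at -1.39 (SE 0.25, limma adjusted p = 2.06e-06), and neither this site nor that of Slc25a17 was called after loess, at -0.47 and -0.74.

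**Figure D2:**
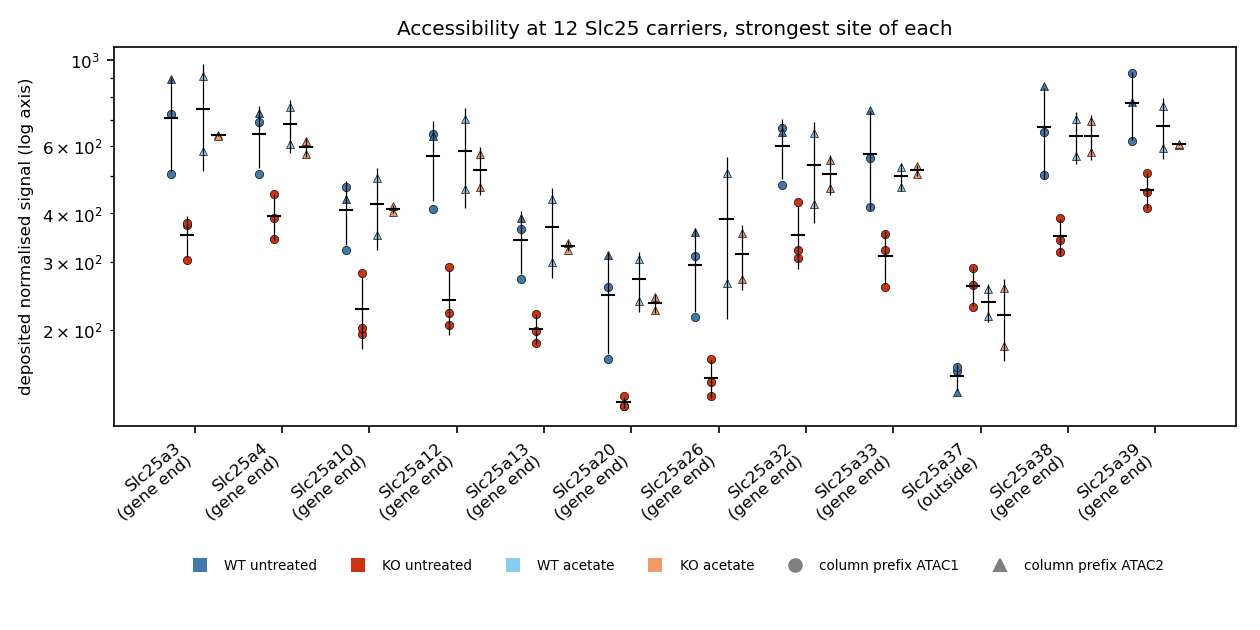
Deposited signal, on a log axis, at the strongest site of 12 carriers in the 10 libraries. Colours give the group, circles and triangles the column prefix, horizontal lines the group mean and vertical lines 1 SD. At 11 carriers the red untreated KO points sit below the dark blue untreated WT points, as at Slc25a3 with 302 to 378 against 507 to 892, and at Slc25a37 they sit above them.

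Against the shared fall, 6 Slc25 sites were higher in untreated KO, at 5 genes. All 6 remained called higher under median-of-ratios, total signal and loess scaling, and within the ATAC1 libraries alone. In the ATAC1 libraries the counts were 6 higher and 52 lower, with no all-site share given here. The 6 were picked by their call on the deposited scale, and a scaling that removes the shared fall tends to raise their differences. The ATAC1 fit uses the same untreated KO libraries, so none of these is a separate check. The share of the higher sites, 6 of 58, stands beside 9.07% of all sites, but the 2 shares differ in the places they cover. Gene ends held 53.4% of the members against 24.4% of all sites. Gene-end sites of the whole table were less often called higher, with the count given below at Slc25a48. Of the 6 sites, only the Slc25a48 start site lay at a gene end. The Slc25a13 gene-body site at chr6:6168522-6168722, inside the aspartate/glutamate carrier 48.5 kb from its start-site peak, read 79, 95.3 and 129 in untreated KO and 56.2, 47.2 and 70.8 in untreated WT, and with acetate 111 and 148 in WT and 124 and 136 in KO. All untreated KO values lay above all untreated WT values, but the acetate libraries of both genotypes stood between 111 and 148. The difference was 0.78 (SE 0.24, limma adjusted p = 0.00224), which is 1.61 above the all-site median, and 1.69 (adjusted p = 9.88e-06) after loess. The Slc25a36 gene-body site at chr9:97096247-97096447 had 129, 118 and 218 in untreated KO and 77.4, 99.5 and 56.4 in untreated WT, and with acetate 76.9 and 74.4 in WT and 82.7 and 86 in KO. Untreated KO alone was high there, with the other 7 libraries at 99.5 or lower, and the difference was 0.97 (SE 0.25, limma adjusted p = 0.000278), or 1.80 above the all-site median.

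Slc25a37 is mitoferrin-1, an importer of iron. Its strongest site lay 12 kb outside the body at chr14:69229674-69229874 and read 229, 262 and 289.7 in untreated KO and 156, 159.7 and 138 in untreated WT, and with acetate 255 and 217 in WT and 256 and 181 in KO. Untreated WT was the low group, and WT with acetate reached into the range of untreated KO. The difference of untreated KO was 0.77 (SE 0.21, limma adjusted p = 0.000697), while the other Slc25a37 site, 3.34 kb from the body, was lower at -0.89 (SE 0.22, limma adjusted p = 0.00022). Slc25a28, mitoferrin-2, had 1 site, 3.5 kb outside its body, which was lower at -1.18 (SE 0.30, limma adjusted p = 0.00029).

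Slc25a48, linked to mitochondrial choline import, had 3 sites that did not move together. The site 7.07 kb upstream at chr13:56430686-56430886 read 99.3, 173 and 173 in untreated KO and 61.2, 50.2 and 90.7 in untreated WT, and with acetate 76.9 and 75.1 in WT and 71.6 and 70.9 in KO. Untreated KO was the high group, with its lowest library, 99.3, above the highest of all the others, 90.7. The difference was 1.12 (SE 0.25, limma adjusted p = 5.35e-05), or 2.04 (adjusted p = 7.02e-06) after loess. The start site at chr13:56438211-56438411, in the window printed above, had 105, 111 and 102 in untreated KO and 56.2, 42.2 and 66.3 in untreated WT, and with acetate 52.3 and 59 in WT and 68.2 and 98 in KO, and was the 1 gene-end member called higher, at 0.96 (SE 0.26, limma adjusted p = 0.000546). Among all 9692 gene-end sites, 145 were higher. The third site, in the gene body at chr13:56444243-56444443, was lower, with 15.9, 20.5 and 20.1 in untreated KO and 41.2, 48.2 and 33.2 in untreated WT, and with acetate 80 and 80.7 in WT and 68.2 and 51.3 in KO and a difference of -1.07 (SE 0.31, limma adjusted p = 0.00111). The nearest other gene to these sites was Il9, a cytokine gene, 34.8 to 48.4 kb away.

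The site with the highest difference lay in the body of Slc25a54 at chr3:109098201-109098401, beside Slc25a24. It was a weak site, at percentile 4.89 of all sites, with 45, 60.7 and 56.8 in untreated KO and 16.2, 18.1 and 25.4 in untreated WT, and with acetate 40 and 40 in WT and 30.7 and 28.7 in KO. Untreated KO was above all other libraries, and its difference was 1.41 (SE 0.33, limma adjusted p = 0.000103), a fold of 2.66, or 2.28 (adjusted p = 1.39e-05) after loess. Slc25a24, whose start site lies 24.7 kb away, was lower at all its 4 sites.

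**Figure D3:**
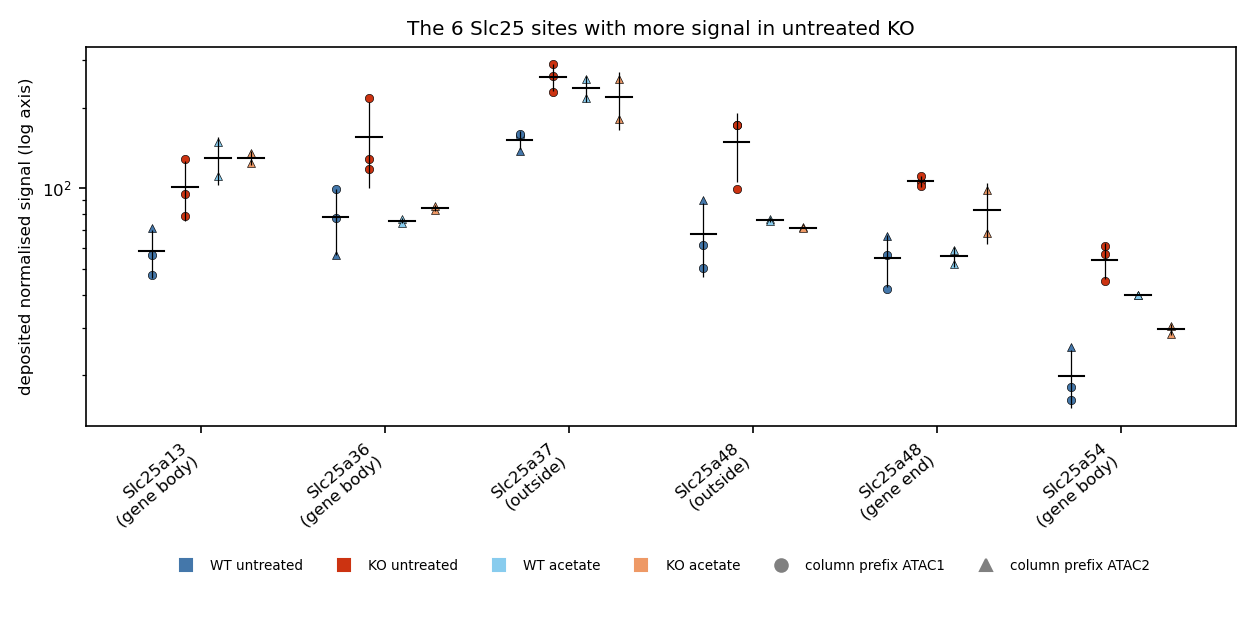
Deposited signal, on a log axis, at the 6 Slc25 sites called higher in untreated KO, in the 10 libraries. Colours give the group, circles and triangles the column prefix, horizontal lines the group mean and vertical lines 1 SD. Red untreated KO points lie above the dark blue untreated WT points at each site, as at Slc25a54 with 45.0 to 60.7 against 16.2 to 25.4.

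A ratio of neighbouring sites within a library does not depend on the scale of that library, and the pairs below were formed after the values were seen, so they are descriptions. The Slc25a13 gene-body signal was 0.427 to 0.586 of its start-site signal in untreated KO and 0.154 to 0.181 in untreated WT, and with acetate 0.254 and 0.494 in WT against 0.386 and 0.404 in KO. Slc25a36 gave 0.357 to 0.518 in untreated KO for body over start site, 0.0839 to 0.243 in untreated WT, and with acetate 0.116 and 0.167 in WT against 0.157 and 0.170 in KO. The far over the near Slc25a37 site gave 2.35 to 2.62 in untreated KO, 0.698 to 0.952 in untreated WT, and with acetate 1.39 and 1.43 in WT against 1.15 and 1.31 in KO. In each of these pairs the untreated KO range lay apart from the untreated WT range. The upstream over the gene-body site of Slc25a48 ranged from 6.24 to 8.59 in untreated KO and from 0.930 to 2.73 over the other 7 libraries. For the start site over the gene-body site of Slc25a48 the ranges were 5.06 to 6.62 and 0.654 to 2.00. Slc25a54 over the Slc25a24 start site gave 0.719 to 0.929 in untreated KO and 0.122 to 0.194 over the other 7. For these last 3 pairs, and for those of Slc25a36 and Slc25a37, untreated KO stood apart from all other libraries, KO with acetate included.

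**Figure D4:**
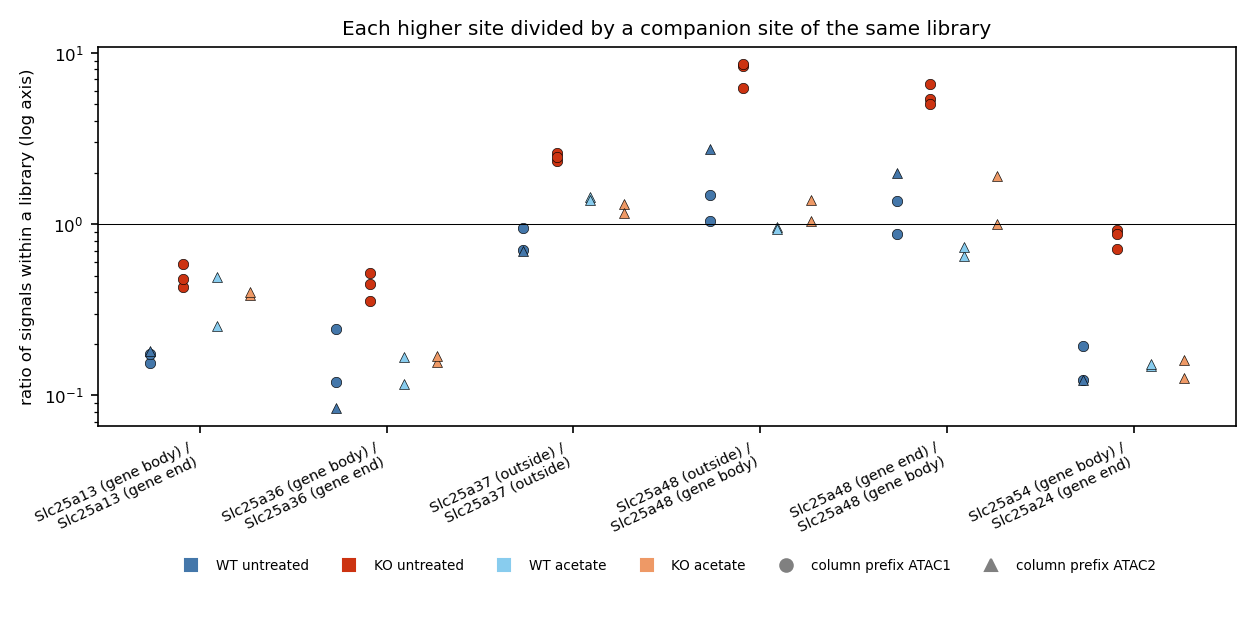
Signal at each of the 6 higher sites divided by the signal of a companion site in the same library, on a log axis, with colours for the group and circles or triangles for the column prefix. The untreated KO points lie highest at each pair but Slc25a13, where 1 WT acetate library, at 0.494, lies within their range of 0.427 to 0.586.

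Of the members with an uncoupling-protein-like protein, Slc25a27 and Slc25a30, 4 of 5 sites were lower in untreated KO, beside 89.6% of all sites, with a median of -0.65. After loess limma called 0 of the 5, with 1 at an unadjusted p under 0.05, a threshold whose all-site share is not given here. On the deposited scale the remaining site, in the Slc25a30 body at chr14:75769402-75769602, was the 1 member not called, at -0.40 (SE 0.21, limma adjusted p = 0.056). Its values were 375, 368 and 448 in untreated KO and 607, 559.6 and 416 in untreated WT, and with acetate 271 and 269 in WT and 254 and 258 in KO. Here the acetate libraries of both genotypes were lowest, and 1 untreated KO value exceeded untreated WT 4.

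With acetate in both genotypes, no Slc25 site was called between KO and WT by limma, with 0 higher and 0 lower of 58, against 0.0227% higher and 0.0% lower of all sites. At an unadjusted p under 0.05 the count was also 0. The differences ran from -0.47 to 0.55, with a median of -0.15 for the Slc25 sites and -0.15 for all sites. KO and WT values did not overlap at 15 of 58 sites (25.9%), against 35.0% of all sites. Each group had 2 libraries. At that size, simulated data on all sites, with few of the sites changed, gave a call at 15% of sites changed 2-fold and 82% of sites changed 4-fold. Most 2-fold changes were missed in that setting, and the rate can differ where many sites change. The outer values were the Slc25a48 start site, at 0.55 (SE 0.32, limma adjusted p = 0.993), and the site 8.62 kb upstream of Slc25a12, at -0.47 (SE 0.28, limma adjusted p = 0.993). Among the carriers above, the differences with acetate were -0.19 at Slc25a3, -0.19 at Slc25a4, -0.02 at Slc25a10 and -0.14 at Slc25a12. The sites higher in untreated KO stood at 0.02 for the Slc25a13 body, 0.15 for the Slc25a36 body, -0.13 for Slc25a37, -0.09 for the Slc25a48 upstream site and -0.42 for Slc25a54.

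Acetate was next set against no treatment within the KO cells. All acetate-treated KO libraries carry the prefix ATAC2 and all untreated KO libraries ATAC1, so acetate and prefix cannot be told apart here without the untreated WT libraries, 1 of which is ATAC2. Signal was higher with acetate at 34 Slc25 sites, lower at 4 and not called at 20. Of all sites, 54.6% were higher and 5.94% lower, and the Slc25 median of 0.60 stood beside 0.61 for all sites. This comparison shares the untreated KO libraries with the first one. After loess, 7 were higher and 8 lower, against 11.5% and 16.7% of all sites, and with the prefix as a further term 8 were higher and 1 lower. All-site shares under the prefix term are not given here, so its counts cannot be set against the whole table. Values did not overlap at 48 of 58 sites (82.8%, against 77.9% of all sites). Without KO acetate 1, the count of higher sites dropped to 18, and without untreated KO 1 to 22. The count of lower sites dropped to 1 without KO acetate 1 or without untreated KO 3, and to 2 without KO acetate 3.

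The largest rises with acetate in KO were at Slc25a28, Slc25a43, Slc25a24 and Slc25a48. The mitoferrin-2 site, Slc25a28, at chr19:43678505-43678705 read 18.1, 14.9 and 30.7 in untreated KO and 54.9, 39.2 and 48.6 in untreated WT, and with acetate 92.3 and 83.5 in WT and 80.1 and 63.4 in KO. Both acetate groups were above every untreated library, with a difference in KO of 1.76 (SE 0.34, limma adjusted p = 4.73e-06). Slc25a43 rose at its gene-body site by 1.75 (SE 0.28, limma adjusted p = 1.08e-07), to a level above every untreated WT library. The start site of Slc25a24, the ATP-Mg/phosphate carrier, at chr3:109122952-109123152 held 62.5, 65.4 and 65 in untreated KO and 132, 93.4 and 208 in untreated WT, and with acetate 268 and 263 in WT and 242 and 178 in KO. Untreated WT 4, the ATAC2 library, was between the other untreated WT and most acetate libraries, and the KO difference was 1.68 (SE 0.26, limma adjusted p = 2.16e-08), or 0.78 and not called with the prefix as a term. The gene-body site of Slc25a48 rose by 1.61 (SE 0.35, limma adjusted p = 4.88e-05). All 4 were called after loess, from 0.84 for Slc25a48 to 1.01 for Slc25a43. The falls were at sites that had been high in untreated KO, the Slc25a48 upstream site at a fold of 0.5 and -1.73 (adjusted p = 0.000179) after loess, Slc25a54 at -0.84 (SE 0.37, limma adjusted p = 0.042) and the Slc25a36 body at -0.81 (SE 0.27, limma adjusted p = 0.00817), and at the Slc25a30 body at -0.63 (SE 0.23, limma adjusted p = 0.0148). With the prefix as a term only the Slc25a48 upstream site was called lower among the members, at -1.70, while Slc25a54 stood at -1.38, the Slc25a36 body at -0.18 and the Slc25a30 body at -0.14, and these 3 were not called. Among the fixed carriers, acetate in KO gave 0.86 at Slc25a3, 1.13 at Slc25a12, 1.05 at Slc25a26 and 0.85 at Slc25a20, all called, and 0.40 at Slc25a39, not called. With the prefix as a term none of these 5 was called, at 0.31 for Slc25a3, 0.82 for Slc25a12, 0.59 for Slc25a26, 0.26 for Slc25a20 and 0.36 for Slc25a39.

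In WT cells acetate was followed by few calls. Of the 58 sites 2 were higher and 1 lower, against 2.91% and 3.02% of all sites, and after loess 5 and 1, against 4.43% and 4.07%. At an unadjusted limma p under 0.05, 11 sites passed, but the share of all sites at that threshold is not given here, so the count cannot be judged. Values did not overlap at 14 of 58 sites (24.1%, against 31.4% of all sites). The higher sites were the Slc25a13 body at 1.15 (SE 0.27, limma adjusted p = 0.00305) and the Slc25a24 start site at 0.95 (SE 0.26, limma adjusted p = 0.0109), and the lower one was the Slc25a30 body at -0.95 (SE 0.23, limma adjusted p = 0.00386), where acetate libraries read 271 and 269 against 607, 559.6 and 416 untreated. None of these 3 was called within the ATAC2 libraries alone, where 1 untreated and 2 acetate libraries remained and the differences were 0.85, 0.35 and -0.62. That fit rests on 1 untreated library, and its counts are not set against all sites here. Without WT acetate 2 no site was called in either direction, without WT acetate 1 only the Slc25a13 body was, and without untreated WT 1 only the Slc25a13 body was. Without untreated WT 2 the Slc25a24 start site lost its call, and without untreated WT 4 the count of lower sites was 2.

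**Figure D5:**
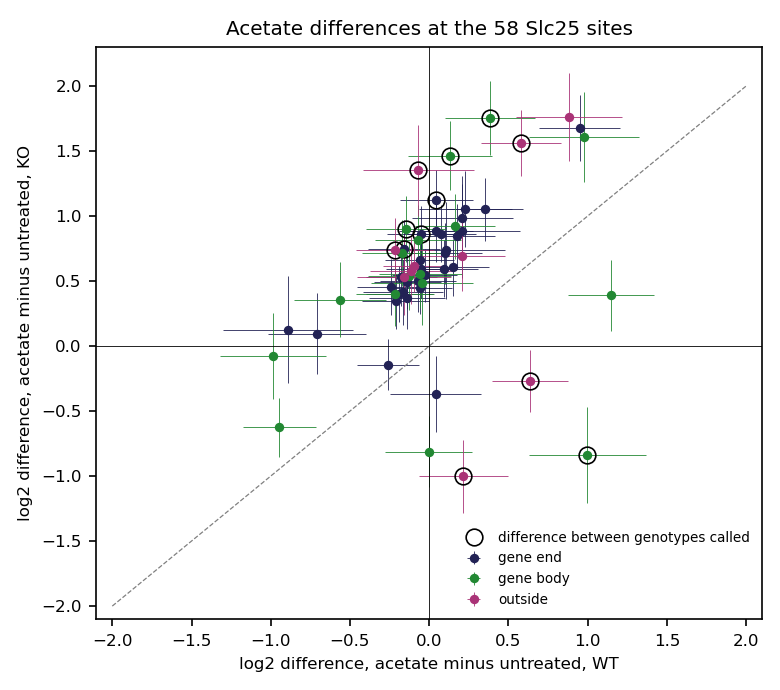
Log2 difference acetate minus untreated at each of the 58 Slc25 sites, in WT on the x axis and in KO on the y axis, with standard errors as bars and the dashed line where both are equal. Most points lie near 0 in WT and above 0 in KO, with a median of -0.05 and 0.60, and rings mark the 12 sites where the genotypes' differences themselves differed.

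The difference between the 2 acetate effects was tested as an interaction, KO minus WT. It was positive at 9 Slc25 sites and negative at 3, against 19.5% and 3.61% of all sites, with a median of 0.69 beside 0.67. After loess 0 were positive and 5 negative, against 0.139% and 7.36% of all sites, and 7 sites had an unadjusted limma p under 0.05. The share of all sites at that unadjusted threshold is not given here. The largest positive values were at the Slc25a17 site, 1.42 (SE 0.50, limma adjusted p = 0.0407), the Slc25a43 body, 1.37 (SE 0.40, limma adjusted p = 0.0185), the Slc25a33 body, 1.33 (SE 0.38, limma adjusted p = 0.0159), and the Slc25a12 gene end, 1.08 (SE 0.32, limma adjusted p = 0.0203). The negative ones were Slc25a54, -1.83 (SE 0.52, limma adjusted p = 0.0162), the Slc25a48 upstream site, -1.22 (SE 0.40, limma adjusted p = 0.0275), and the far Slc25a37 site, -0.90 (SE 0.34, limma adjusted p = 0.0437). These 3 negative sites were also called after loess, at -2.61, -1.99 and -1.58. Calls depended on single libraries: without KO acetate 1 or without WT acetate 2 none of the 58 sites was called, while without untreated WT 2 the count was 31 positive and 4 negative, and without untreated KO 1 it was 0 positive and 2 negative. It was 3 and 0 without untreated KO 2, 2 and 1 without untreated WT 1, 15 and 1 without WT acetate 1, and 3 and 1 without KO acetate 3, and 13 positive without untreated KO 3 or untreated WT 4, with 2 and 4 negative. With the prefix as a further term, which only the untreated WT libraries inform, 13 sites were positive and 4 negative, with 1.995 at the Slc25a17 site, 1.36 at the Slc25a43 body and -2.01 at Slc25a54. The all-site shares for that fit are not given here.

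A further list of mitochondrial transport genes was read beside these sites. It held the carrier-family genes Ucp2, Ucp3, Mtch1 and Mtch2, whose symbols fall outside the rule, and the pyruvate carrier, channels of the outer membrane, the calcium uniporter, sideroflexins, ABC transporters and import factors. Of 26 symbols 20 had a site, with 45 sites. In untreated KO 43 of these were lower, 1 higher and 1 not called, beside 89.6% lower and 9.07% higher of all sites, with a median of -0.91 beside -0.84. After loess 0 were lower and 1 higher. Among the smallest adjusted p-values were those at Mcu, the uniporter pore, with a log2 difference of -1.43 (SE 0.25, limma adjusted p = 7.51e-07), the outer-membrane channel Vdac1 at -1.43 (SE 0.25, adjusted p = 8.66e-07) and Timm10b at -1.05 (SE 0.19, adjusted p = 1.13e-06). After loess these stood at -0.51 (limma adjusted p = 0.102), -0.52 (adjusted p = 0.137) and -0.37 (adjusted p = 0.0507). With acetate 0 of the 45 were called between KO and WT by limma, and 0 at an unadjusted p under 0.05. Acetate in KO gave 27 higher and 1 lower of 45, led by Mcu at 1.97 (SE 0.28, adjusted p = 1.55e-09), beside 54.6% and 5.94% of all sites, and in WT 0 higher and 2 lower, beside 2.91% and 3.02%, with 4 at an unadjusted limma p under 0.05. For the unadjusted threshold no all-site share is given here.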

How the data were processed

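The deposited table gave 1 value per site and library, in a signal unit that the authors made; the positions are on GRCm38, the build in the submitters' processing notes, and the submitters' processing notes name BWA 0.7.16a, Picard 2.10.9, FastQC 0.11.5, DESeq2, DESeq, DiffBind 3.6.1, deepTools 3.5.1 and Genrich. The signal was found to be whole reads divided by 1 factor per library, with 100% of values whole within 0.001 reads, and the sources used here do not say how that factor was made. If the factors carry a global difference between libraries, all sites of a library move with it, so loess-scaled values are given beside the deposited scale. Genes came from RefSeq (GRCm38.p6).

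Log2(value + 1) was fitted for all 39657 sites and 10 libraries with limma 3.58.1 (R 4.3.3), with 4 group means, a mean-variance trend and robust empirical Bayes. Benjamini-Hochberg adjustment ran over all sites, and a call means an adjusted p under 0.05. Fold changes on this scale understate changes of low sites. The fit was tested on simulated data. Members and gene lists were chosen with earlier results of these data known. By rule, the text names the strongest site of 12 of 18 fixed carriers, per comparison the 4 largest called rises and falls with no overlap, and every site higher in untreated KO; other named sites were chosen after their values were seen. The untreated WT column numbered 4 and the KO acetate column numbered 3 match no sample title by number and were placed by group. All 10 columns of values were used. Values of some listed genes are not reported here.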

Additional observations from a re-analysis of the deposited data

Results flagged for a closer look

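At 12 Slc25 sites the acetate difference itself differed between KO and WT (limma interaction, KO minus WT, log2). It was higher in KO at 9, beside 19.5% of all sites, and 0 of these were called after loess. Every member called after loess was lower in KO. Among them was the Slc25a13 body, at -1.52 (limma adjusted p = 0.0064), which was not called on the deposited scale. After loess 7 of the 58 sites, both directions counted, had an unadjusted limma p under 0.05, with no all-site share given here. The 9 sites higher in KO on the deposited scale were Slc25a17 downstream at 1.42, the Slc25a43 body at 1.37, the Slc25a33 body at 1.33 and start site at 0.90, the Slc25a12 gene end at 1.08, the Slc25a39 body at 1.05 (1.045 as computed), the Slc25a31 upstream site at 0.99 (0.985), the near Slc25a37 site at 0.95 and the Slc25a38 gene end at 0.91. It was lower in KO at 3, beside 3.61% of all sites, namely Slc25a54 at -1.83, the Slc25a48 upstream site at -1.22 and the far Slc25a37 site at -0.90. Slc25a31, a testis ADP/ATP carrier, read 64.7, 58.8 and 80.4 in untreated KO and 164, 174 and 114 in untreated WT, and with acetate 191 and 257 in WT and 229 and 176 in KO at its site 1.5 kb upstream, and Slc25a39 read 131, 131 and 174 in untreated KO and 328, 177 and 390.3 in untreated WT, and with acetate 351 and 186 in WT and 271 and 267 in KO at its weaker site. Untreated KO was the lowest group at both. The near Slc25a37 site read 97.6, 99.9 and 117 in untreated KO and 219.8, 168 and 198 in untreated WT, and with acetate 178 and 157 in WT and 195 and 157 in KO. With the column prefix as a term 13 sites were positive and 4 negative, with no all-site share given here. The Slc25a33 start site and the Slc25a38 gene end, at 0.695 and 0.717, were then not called.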

How the results depend on the processing

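Over 84 results at named sites there were 1144 alternatives, of which 939 stayed on the same side of the threshold, 175 lost the call, 21 gained one and 9 turned the sign of a called value. Among them 76 values that were not called changed sign. In untreated KO against WT the count of lower sites went from 51 to 1 (median-of-ratios), 3 (total signal) and 1 (loess), while the count of higher sites was 7 under median-of-ratios, 5 with a mean value of at least 50 (which removes Slc25a54), 4 over sites overlapping the gene body and 6 elsewhere. The turned values were Slc25a4 at 0.108, 0.02 and 0.023 (median-of-ratios, total signal, loess), Slc25a13 start site at 0.052 and 0.064 (median-of-ratios, loess), Slc25a32 at 0.043 and Slc25a39 at 0.066 (median-of-ratios), and for acetate in KO Slc25a4 at -0.019 and Slc25a32 at -0.082 (median-of-ratios). For acetate in KO the higher and lower counts were 7 and 7 under median-of-ratios and under total signal, 7 and 8 under loess, and 8 and 1 with the column prefix as a term. For acetate in WT they were 5 higher (median-of-ratios, loess) and 4 (total signal), with 2 lower at pseudocount 10, and 0 lower with the prefix as a term and in ATAC2 alone. The interaction gave 0 positive and 5 negative under each of the 3 scalings, and 1 negative over sites overlapping the gene body. Over those sites the signal shares were 0.158% and 0.159% (untreated KO and WT) and 0.156% and 0.1601% (WT and KO with acetate).

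Leaving out 1 library at a time, higher and lower counts ranged from 6 to 6 and 49 to 52 (KO against WT untreated), 18 to 36 and 1 to 4 (acetate in KO), 0 to 3 and 0 to 2 (acetate in WT) and 0 to 31 and 0 to 4 (interaction), and stayed 0 for KO against WT with acetate. Where 1 library was left in a group, it was assumed to vary like the others. With the replicate block, the lower count for acetate in WT was 2. Same-numbered libraries of untreated KO and WT had deviations correlated at 0.081 and 0.0794, and over all same-numbered libraries of different groups the range was -0.122 to 0.331, the latter for WT untreated 2 with WT acetate 2, so the numbers were not taken to pair the libraries. The planned edgeR alternatives were not run, because the reads recovered from the signal did not pass a check of the unit in some columns. Groups of 2 or 3 libraries and a median of 57 reads per site in the shallowest library limit what can be called, and the cause of each change was not tested.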
